A study of Neurospora crassa with 12 samples.

Results

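Mitogen-activated protein kinase (MAPK) cascades are relays of protein kinases, in which a MAPK kinase kinase (MAPKKK) phosphorylates a MAPK kinase (MAPKK), which phosphorylates the MAPK. *Neurospora crassa* has 3 such cascades. The MAK-1 cascade (mik-1, mek-1, mak-1) is known for cell wall integrity, the MAK-2 cascade (nrc-1, mek-2, mak-2) for hyphal fusion, growth and sexual development, and the OS-2 cascade (os-4, os-5, os-2) for the response to osmotic stress and for sensitivity to phenylpyrrole and dicarboximide fungicides. Signal passes along these relays by phosphorylation, which RNA-seq does not measure, so the values below are transcript levels alone.

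The 9 genes were chosen by identifier, as the 3 kinase tiers of each cascade, from 9729 genes with an NCU identifier in the deposited tables. All 9 were found and all 9 were among the 7582 genes that passed the filter on low counts. The identifier given for mak-1, NCU11376, is an old locus tag of NCU09842 in the NC12 reference annotation, and the row of NCU09842 was used. The other rows were NCU02234 (mik-1), NCU06419 (mek-1), NCU06182 (nrc-1), NCU04612 (mek-2), NCU02393 (mak-2), NCU03071 (os-4), NCU00587 (os-5) and NCU07024 (os-2).

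Mycelium of the wild type strain FGSC2489 was treated with 40 μM HSAF, the heat-stable antifungal factor of the bacterium *Lysobacter enzymogenes*. The groups are HSAF-0 (untreated, libraries A, B and C), HSAF-5 (5 min, D, E and F), HSAF-30 (30 min, G, H and I) and HSAF-60 (60 min, J, K and L), with 3 libraries each, and the labels put the age of every group at 48 h from inoculation, while the paper's methods state a shorter culture. No untreated culture matched in time to HSAF-5, HSAF-30 or HSAF-60 was analysed here, so time in the experiment and exposure to HSAF cannot be told apart. The labels do not say whether the 3 libraries of a group came from separate cultures, and the paper calls them biological replicates. P-values measure the spread between these libraries. In such bulk samples, fewer cells of a kind and less RNA per cell cannot be told apart.

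Total counts per library lay between 11517462 and 15698448, but those on NCU genes were as few as 790513 (library I) and as many as 11265740 (library J). A pair of features named newGene_189 and newGene_190 held 25.2% to 93.7% of all counts, with the highest share in library I. Library I therefore stood apart, and the main changes at 30 min are given with and without it. Of the hyphal genes used to check the tissue, all 4 (hex-1, cot-1, act and Bml) had counts in every library. Their summed level was 3174 to 4326 CPM (counts scaled to a common library size, with sizes adjusted by TMM over NCU genes) in HSAF-0, 5056 to 6472 in HSAF-5, 6386 to 11119 in HSAF-30 and 3625 to 3942 in HSAF-60. This sum was carried by hex-1 and act, which edgeR called higher at 30 min (1.41 and 1.01 on the log2 scale), whereas the mean of cot-1 was 47.3, 38.0, 25.2 and 22.0 CPM and that of Bml 391, 252, 233 and 158 CPM in order of time, with Bml called lower at 60 min (-1.31, adjusted p = 0.00563). The summed level of 4 genes of conidia (eas, con-6, con-8 and con-10) was 24.8 to 33.7 CPM, 33.2 to 162 CPM, 12.4 to 42.7 CPM and 11.4 to 41.0 CPM in the same order of groups. Of these, con-6, con-8 and con-10 were at 0 in some libraries, con-8 in library I alone. The part of these marker levels in the results below was not tested.

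Changes were tested with edgeR's quasi-likelihood test on all 12 libraries, and a gene was called at a Benjamini-Hochberg adjusted p under 0.01 over all tested genes with a fold change of at least 2. At 5 min, 1 of the 9 kinase genes was called higher than in HSAF-0 (mek-1), where 9.72% of all tested genes were called higher and 2.27% lower. At 30 min, 2 were called higher (mek-1 and mak-1), against 19.1% of all tested genes higher and 15.2% lower. Neither comparison called a kinase gene lower with edgeR, which gave 0 lower at an unadjusted p under 0.05 at 5 min and 1 lower (mak-2) at 30 min. DESeq2 called mak-2 lower at 30 min and no kinase gene lower at 5 min. At 60 min, edgeR called 0 of the 9 genes in either direction, against 9.38% of all tested genes higher and 3.53% lower. Of the 9 genes, 0 had an unadjusted p under 0.05, and DESeq2 called 0. The split of all calls depended on the scaling: higher calls were 81.1% of the calls at 5 min and 55.7% at 30 min with TMM, 62.8% and 42.9% with upper quartile factors, and 46.3% and 45.0% with library size alone. The median log2 fold change of the 9 genes in HSAF-5 was 0.14, beside -0.11 over all tested genes. In HSAF-30 it was 0.31 beside -0.17, and in HSAF-60 it was -0.38 beside 0.0020.

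Between HSAF-60 and HSAF-30, 3 of the 9 genes were called lower in HSAF-60 (mek-1, mak-1 and os-4), where 13.8% of all tested genes were called lower and 13.4% higher. From HSAF-5 to HSAF-30, mak-1 was the gene called higher, where 9.02% of all tested genes were called higher and 7.81% lower. From HSAF-5 to HSAF-60, mek-1 was the gene called lower, where 9.43% of all tested genes were called lower and 8.65% higher. Without library I, edgeR called these same genes in each of the 6 comparisons, while the share of all tested genes called in either direction was 13.8% (HSAF-5 against HSAF-0), 32.4% (HSAF-30 against HSAF-0), 15.5% (HSAF-60 against HSAF-0), 13.9% (HSAF-30 against HSAF-5), 27.3% (HSAF-60 against HSAF-30) and 21.9% (HSAF-60 against HSAF-5). In the same order, the ranges of the groups lay apart for 5, 4, 5, 5, 6 and 4 of the 9 genes, against 48.4%, 57.5%, 51.7%, 39.7%, 48.4% and 49.4% of all tested genes. With 9 genes, the shares called are based on counts of 0 to 3.

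**Figure D1:**
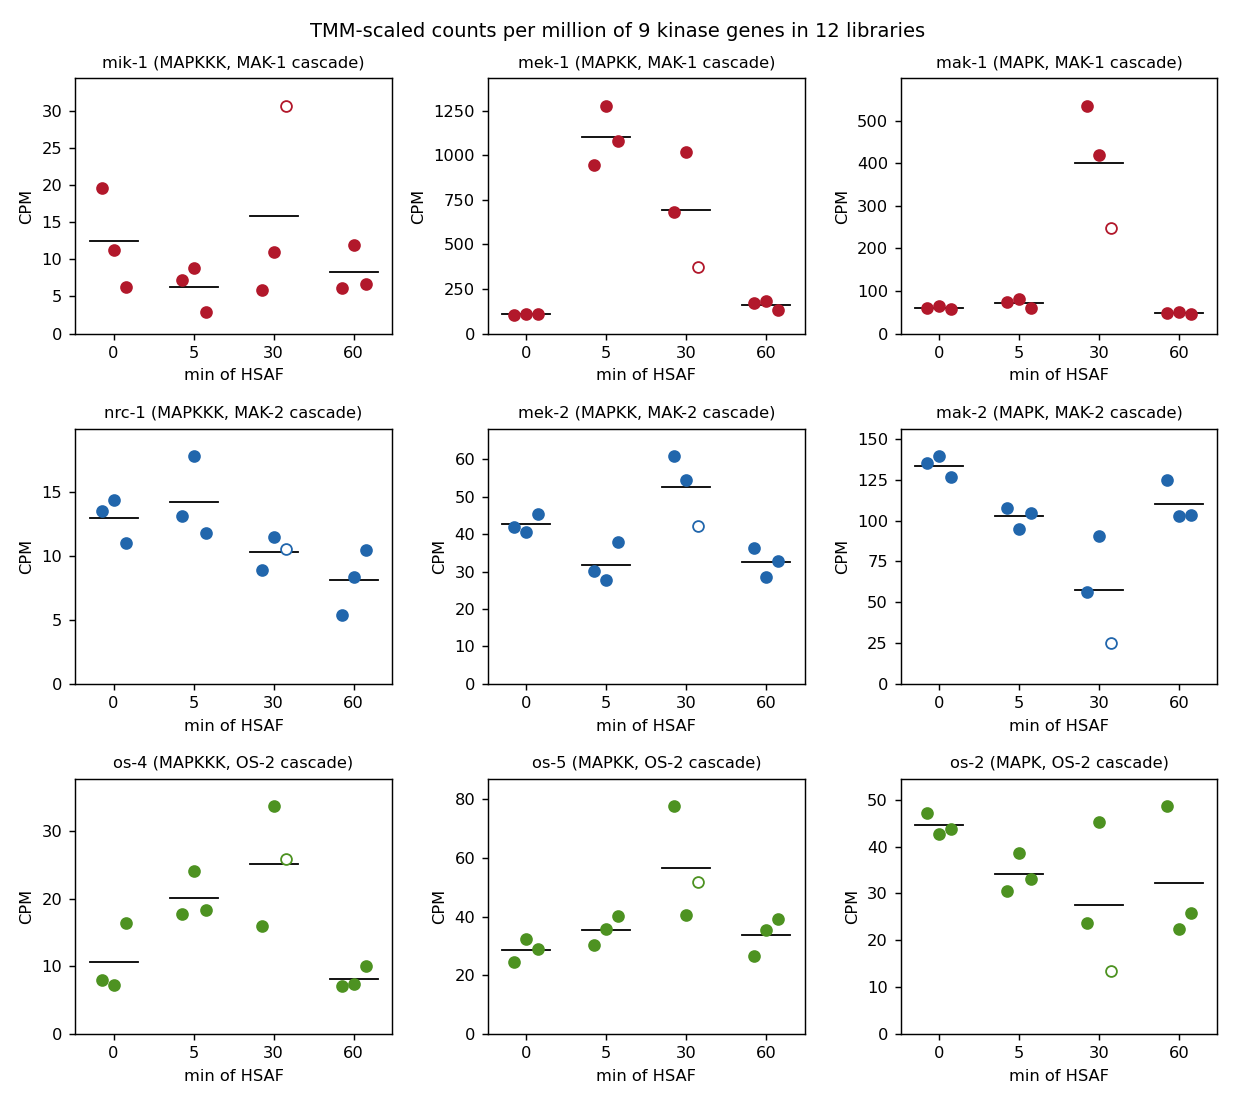
TMM-scaled CPM (vertical axes, linear and starting at 0) of the 9 kinase genes against minutes of HSAF, with 1 point per library, a black line at the mean of 3 libraries and an open point for library I. Among the panels, mek-1 is high at 5 and 30 min and mak-1 at 30 min alone, while mik-1 and os-2 spread widely within HSAF-30.

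The MAPKK gene of the MAK-1 cascade, mek-1, had the largest change at 5 min among the 9 genes. Libraries A, B and C held it at 103, 112 and 109 CPM, and D, E and F at 948, 1277 and 1082 CPM. The groups were far apart, with every HSAF-5 library above every HSAF-0 library. The log2 fold change was 3.35 (standard error 0.37, 95% interval 2.58 to 4.13, adjusted p = 6.03e-06, edgeR's quasi-likelihood test), a 10.2-fold increase. By size of increase, mek-1 ranked 220 among the 7582 tested genes at 5 min.

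At 30 min mek-1 stood at 683, 1018 and 375 CPM in G, H and I, still above all HSAF-0 libraries, and only H reached into the range of HSAF-5. The log2 fold change against HSAF-0 was 2.68 (standard error 0.36, adjusted p = 1.62e-05, edgeR) and 2.98 without library I (adjusted p = 1.61e-06). Between HSAF-5 and HSAF-30 no change was called, at -0.67 with an interval of -1.38 to 0.04 (adjusted p = 0.139, edgeR), and -0.37 without library I.

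By 60 min mek-1 had dropped to 171, 183 and 130 CPM in J, K and L, below every HSAF-5 and HSAF-30 library. The log2 fold change from HSAF-30 was -2.11 (standard error 0.35, adjusted p = 0.000207, edgeR), and -2.40 without library I. From HSAF-5 it was -2.77 (adjusted p = 5.19e-05). All 3 HSAF-60 libraries lay above the 3 HSAF-0 libraries, but the change of 0.58 (interval -0.13 to 1.29, adjusted p = 0.231, edgeR) was not called. Ranges of HSAF-60 and HSAF-0 did not overlap in 51.7% of all tested genes.

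The MAPK gene of the same cascade, mak-1, behaved differently in time. Its level was 59.5, 63.8 and 56.7 CPM in A to C and 74.1, 81.7 and 60.6 CPM in D to F, so that the groups overlapped at 5 min. The change at 5 min was 0.26 (interval -0.37 to 0.90, adjusted p = 0.556, edgeR). Relative to the median of all genes it lay between 0.37 and 0.38 under 5 scalings. At 30 min, mak-1 stood at 536, 420 and 249 CPM in G to I, and all 3 libraries were above every library of the other groups. Its log2 fold change was 2.75 against HSAF-0 (standard error 0.32, adjusted p = 4.49e-06, edgeR) and 2.48 against HSAF-5 (standard error 0.32, adjusted p = 5.10e-05). Without library I the latter was 2.73, and both stayed called (adjusted p = 7.88e-07 and 2.40e-05).

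At 60 min mak-1 was at 47.8, 49.5 and 45.7 CPM in J, K and L. In TMM-scaled CPM these are the lowest 3 of its 12 values. In FPKM rescaled to a common total, without TMM, library F of HSAF-5 was lowest (18.3). There, J (28.0) and K (26.8) lay above library C of HSAF-0 (25.6). From HSAF-30 the log2 fold change was -3.08 (standard error 0.32, adjusted p = 8.52e-06, edgeR), an 8.45-fold decrease, and -3.33 without library I. Against HSAF-0 it was -0.33 (interval -0.97 to 0.30, adjusted p = 0.456), which was not called. In the NC12 annotation mak-1 overlaps a neighbour, NCU09843, over 1160 bases (29.4% of mak-1). This neighbour stayed between 0 and 6.06 CPM in all libraries.

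The MAPKKK gene at the head of this cascade, mik-1, was weakly expressed, with 15 to 89 counts per library, and was called in none of the 6 comparisons. Its level was 19.6, 11.3 and 6.29 CPM in A to C, 7.20, 8.77 and 2.89 in D to F, 5.89 in G, 30.6 in I and a value between them in H, and 6.08, 11.9 and 6.71 in J, K and L. Library I held the highest value and the groups overlapped throughout. At 30 min the log2 fold change against HSAF-0 was 0.24 (standard error 0.58) with library I and -0.51 without it (adjusted p = 0.751 and 0.461, edgeR), so that its sign depended on this library, and it was -0.091 without library C. At 5 min it was -0.97 (interval -2.23 to 0.28, adjusted p = 0.255).

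**Figure D2:**
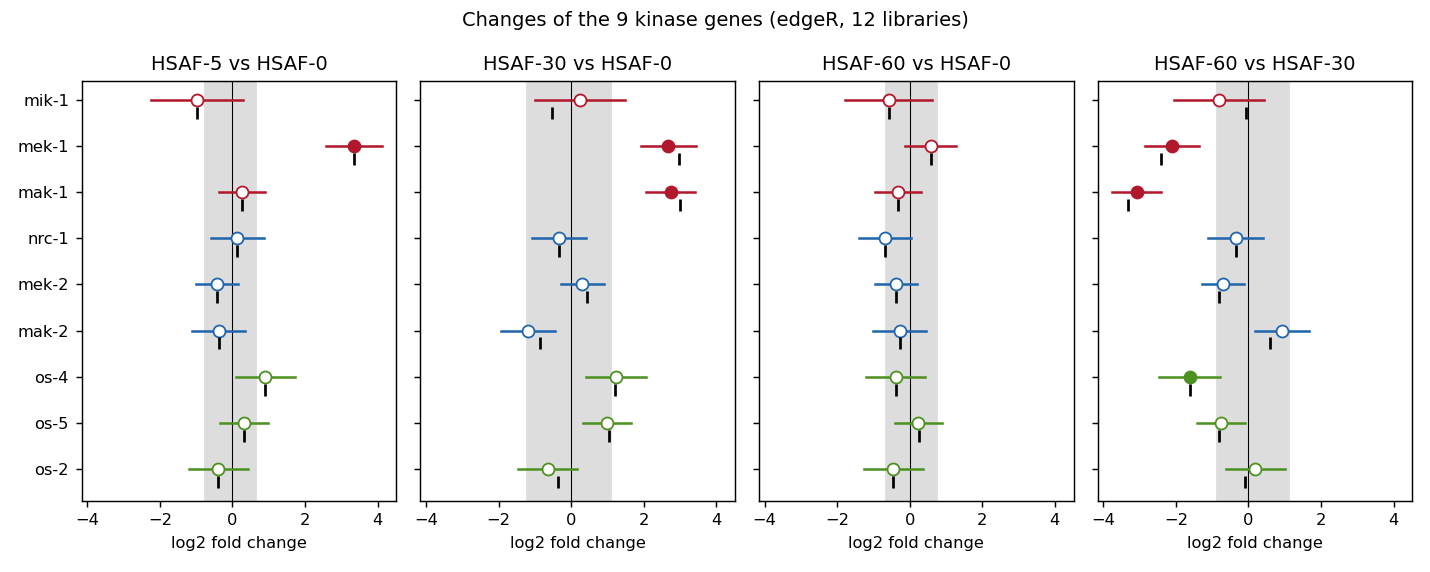
Log2 fold changes (horizontal axes) of the 9 kinase genes in 4 comparisons from edgeR on 12 libraries, with bars for the 95% interval, filled points for called genes, black ticks for the value without library I and a grey band from the lower to the upper quartile of all 7582 tested genes. The filled points are mek-1 at 5 min (3.35), mek-1 and mak-1 at 30 min (2.68 and 2.75), and mek-1, mak-1 and os-4 from HSAF-30 to HSAF-60 (-2.11, -3.08 and -1.62).

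In the MAK-2 cascade, none of the 3 kinase genes was called in any of the 6 comparisons by edgeR on 12 libraries with the settings used above. The MAPK gene mak-2 came closest. Its level was 135, 140 and 126 CPM in A to C, 108, 95.1 and 105 in D to F, 56.2, 90.4 and 24.9 in G to I, and 125, 103 and 104 in J, K and L. In TMM-scaled CPM, every HSAF-5 and every HSAF-30 library was below every HSAF-0 library, and so was every HSAF-60 library, by a narrow margin. Such a lack of overlap was found in 48.4%, 57.5% and 51.7% of all tested genes at 5, 30 and 60 min. In FPKM rescaled to a common total, without TMM, library J of HSAF-60 (114) lay above B (106) and C (90.9) of HSAF-0.

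The log2 fold change of mak-2 at 30 min was -1.19 (standard error 0.35, interval -1.94 to -0.45, adjusted p = 0.0106, edgeR), just outside the threshold. Without library I, in which mak-2 rests on 26 counts, it was -0.86 (adjusted p = 0.0199). DESeq2 called it (-1.25, adjusted p = 0.000277), and so did edgeR without library H (-1.67, adjusted p = 0.00082). Of 25 settings, 10 gave a call, 0.05 as the limit on adjusted p among them. DESeq2 size factors in edgeR and TMM on all deposited features also gave a call, and moved the median of all genes by -0.048 and 0.017. Upper quartile factors in edgeR gave a call as well (-1.53, adjusted p = 0.000796), but moved that median by -0.30. Relative to the median, mak-2 lay between -1.08 and -1.03 under 5 scalings. From HSAF-30 to HSAF-60, mak-2 had a log2 fold change of 0.92 (adjusted p = 0.0451, edgeR) and 0.59 without library I, neither of which was called. DESeq2 called mak-2 higher in this comparison, as did 6 of 25 settings with DESeq2 among them. In the annotation mak-2 overlaps NCU02394, which edgeR called higher in HSAF-60 than in HSAF-0 (1.35, adjusted p = 0.00782). The sources used here do not say how overlapping reads were assigned.

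The MAPKK gene mek-2 had a range of 40.7 to 45.4 CPM in untreated mycelium, 27.7 to 37.8 after 5 min, 42.1 to 60.9 after 30 min and 28.6 to 36.4 after 60 min. In TMM-scaled CPM, all HSAF-5 and all HSAF-60 libraries were below all HSAF-0 and all HSAF-30 libraries. In FPKM rescaled to a common total, without TMM, library J of HSAF-60 (27.4) lay above B (25.4) and C (26.1) of HSAF-0 and G (26.2) of HSAF-30. Against HSAF-0 the 3 log2 fold changes, in order of time, were -0.42, 0.31 and -0.38 (adjusted p = 0.297, 0.357 and 0.333, edgeR), and no call was made. From HSAF-5 to HSAF-30 it was 0.73 (interval 0.14 to 1.32, adjusted p = 0.0567) and 0.86 without library I (adjusted p = 0.0279). In the annotation mek-2 overlaps NCU04613 over 292 bases (9.2% of mek-2). This neighbour was between 0 and 19.1 CPM in the libraries. The MAPKKK gene nrc-1 ranged from 5.40 to 17.8 CPM over the 12 libraries and rested on 11 to 109 counts. By mean TMM-scaled CPM its lowest group was HSAF-60, with 5.40, 8.38 and 10.4 CPM, at a log2 fold change of -0.68 against HSAF-0 (interval -1.41 to 0.05, adjusted p = 0.164, edgeR). In FPKM rescaled to a common total, without TMM, its mean was 3.46 in HSAF-60. In HSAF-30 that mean was 3.83, and 3.04 without library I.

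In the OS-2 cascade, the MAPKKK gene os-4 was the member with a called change. Its level was 8.04, 7.24 and 16.4 CPM in A to C, 17.8, 24.1 and 18.3 in D to F, 16.0, 33.7 and 25.8 in G to I, and 7.11, 7.36 and 9.97 in J, K and L. In TMM-scaled CPM, HSAF-5 lay above all HSAF-0 libraries, while library G of HSAF-30 fell just below library C of HSAF-0. In FPKM rescaled to a common total, without TMM, libraries D (4.16) and F (3.44) lay below library C (4.58). The log2 fold change was 0.91 at 5 min (interval 0.09 to 1.73, adjusted p = 0.105, edgeR) and 1.23 at 30 min (interval 0.40 to 2.06, adjusted p = 0.0158), with 1.22 at 30 min without library I (adjusted p = 0.0257), none of which was called. At 30 min os-4 was called without library C (1.72, adjusted p = 0.00529) and without library G (1.49, adjusted p = 0.00752).

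From HSAF-30 to HSAF-60, os-4 fell by 1.62 on the log2 scale (standard error 0.39, adjusted p = 0.00363, edgeR), with every HSAF-60 library below every HSAF-30 library, and by 1.61 without library I (adjusted p = 0.00629). This call was lost without library H, J or K (adjusted p up to 0.0214), with only HSAF-30 and HSAF-60 in the fit (0.0134) and in limma on rescaled FPKM (-1.07, adjusted p = 0.0395). It was also lost with library size alone (-1.28, adjusted p = 0.0204), which moved the median of all genes by 0.42; relative to that median os-4 lay between -1.79 and -1.72 under 5 scalings. From HSAF-5 to HSAF-60 the log2 fold change was -1.30 (adjusted p = 0.0175), which was not called.

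The MAPKK gene os-5 had a range of 24.4 to 32.3 CPM in untreated mycelium, 30.5 to 40.3 after 5 min, 40.5 to 77.8 after 30 min and 26.7 to 39.3 after 60 min. In TMM-scaled CPM, every HSAF-30 library was above every library of the other groups, the lowest by a margin of 40.5 against 40.3 CPM. In FPKM rescaled to a common total, without TMM, library H (18.9) lay below library B (19.1) and below all HSAF-60 libraries (19.2 to 23.9). The log2 fold change at 30 min was 0.99 (interval 0.33 to 1.65, adjusted p = 0.0149, edgeR) and 1.05 without library I (adjusted p = 0.0148), which missed the threshold. From HSAF-30 to HSAF-60 it was -0.75 (interval -1.40 to -0.10, adjusted p = 0.0598).

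The MAPK gene of this cascade, os-2, was at 47.3, 42.6 and 43.8 CPM in A to C, 30.5, 38.7 and 33.0 in D to F, 23.7, 45.2 and 13.4 in G to I, and 48.6, 22.5 and 25.8 in J, K and L. The HSAF-5 libraries lay below all HSAF-0 libraries, whereas H and J reached the HSAF-0 level while the other libraries of their groups did not. The value in library I rests on 14 counts. The log2 fold changes against HSAF-0 were -0.39 at 5 min (interval -1.20 to 0.43), -0.65 at 30 min (-1.47 to 0.18; -0.36 without library I) and -0.46 at 60 min (-1.26 to 0.35), with adjusted p of 0.503, 0.177 and 0.418 in edgeR. These intervals include changes of 2-fold downwards, so a decrease of that size could not be told from no change.

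Levels of different genes were compared per length, as deposited FPKM rescaled in each library to a common total over the NCU genes. In HSAF-0, the MAPK gene mak-2 had the highest level of the 9, at 104 ± 13.1 rescaled FPKM (SD, n = 3 libraries), and mek-1 followed at 63.7 ± 4.63. Their ranges did not overlap. The genes mak-1 (29.8 ± 3.78), os-2 (27.9 ± 4.31) and mek-2 (27.2 ± 2.50) overlapped with each other, above os-5 at 16.9 ± 1.85. The 3 MAPKKK genes were lowest and overlapped, with nrc-1 at 5.22 ± 1.08, mik-1 at 3.45 ± 2.36 and os-4 at 3.15 ± 1.26 rescaled FPKM.

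These levels carry no TMM adjustment, so they serve to order genes within a group, and differences between groups can depart from the tested changes. For mak-1 the mean went from 29.8 in HSAF-0 to 25.8 in HSAF-5, while the tested log2 fold change was 0.26. The order at the top changed with time. In HSAF-5, mek-1 was highest at 465 ± 97.0 rescaled FPKM in place of mak-2 (56.7 ± 6.71), and mak-1 was at 25.8 ± 6.61. In HSAF-30, mek-1 at 347 ± 114 and mak-1 at 169 ± 12.4 (378 ± 142 and 174 ± 12.2 without library I, n = 2) were the highest pair in all 3 libraries, and mak-2 was at 36.8 ± 17.6 (43.6 ± 18.5 without library I, n = 2). In HSAF-60, mek-1 (105 ± 24.3) and mak-2 (94.2 ± 17.5) overlapped, and mak-1 was back at 25.8 ± 2.84.

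The ratio of 2 genes within a library does not depend on how libraries are scaled. The ratio of mek-1 to mak-1 in FPKM was 2.07 to 2.30 in HSAF-0, 15.3 to 21.3 in HSAF-5, 1.52 to 2.89 in HSAF-30 and 3.39 to 4.41 in HSAF-60. The HSAF-5 libraries were apart from all others, and HSAF-60 lay between HSAF-5 and the overlapping groups HSAF-0 and HSAF-30. For mek-2 to mak-2 the ratio was 0.241 to 0.287 in HSAF-0, 0.231 to 0.300 in HSAF-5, 0.493 to 1.47 in HSAF-30 and 0.239 to 0.261 in HSAF-60, so that HSAF-30 stood apart from the other groups. In the OS-2 cascade, os-5 to os-2 was 0.488 to 0.730 in HSAF-0 and 0.889 to 1.15 in HSAF-5, and the wide ranges of HSAF-30 (0.842 to 3.78) and HSAF-60 (0.535 to 1.56) overlapped with HSAF-5. Between groups of 3 libraries, an exact permutation test (two-sided) cannot give a p below 0.1, so these ratios are given as a description.

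**Figure D3:**
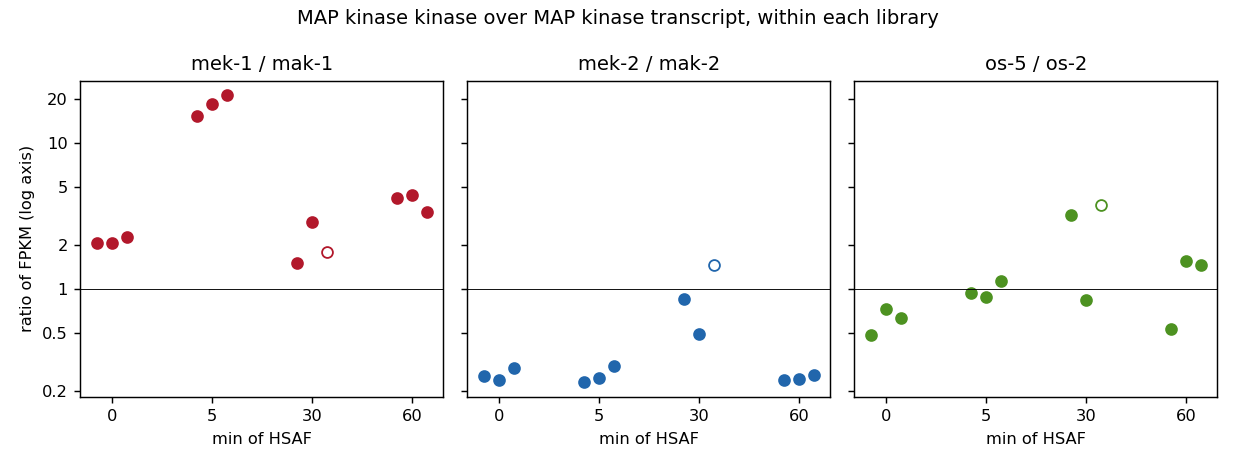
Ratio of MAPKK to MAPK transcript in FPKM (log axis) within each library against minutes of HSAF, 1 panel per cascade and 1 point per library, with library I open and a line at a ratio of 1. The mek-1 to mak-1 ratio is at 15.3 to 21.3 in HSAF-5 alone, while mek-2 to mak-2 is highest in HSAF-30, at 0.493 to 1.47.

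Over the 12 libraries, Pearson's r of log2 CPM was 0.52 between mek-1 and mak-1 (Spearman's rank correlation 0.57), -0.28 between mik-1 and mek-1, and 0.23 between mik-1 and mak-1. In the MAK-2 cascade it was -0.16 between nrc-1 and mek-2, 0.096 between nrc-1 and mak-2, and -0.28 between mek-2 and mak-2. In the OS-2 cascade it was 0.45 between os-4 and os-5, -0.21 between os-4 and os-2, and -0.66 between os-5 and os-2. Across cascades, r was 0.77 between mek-1 and os-4, 0.77 between mak-1 and os-5, and 0.83 between mak-2 and os-2, the last of which was 0.60 without library I. For mak-1 it was also 0.73 with mek-2 and 0.65 with os-4. It was -0.74 between mak-2 and os-5 (-0.93 without library I) and -0.67 between mak-1 and mak-2 (-0.79 without it). Pairs across cascades that are not listed had weaker r over the 12 libraries. These values describe 12 libraries in 4 groups, and depth in library I enters each of them.

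Among the 1055 tested genes with a symbol in the reference, the 2 whose log2 CPM followed mek-1 most closely were prd-4 (Pearson's r 0.99 over 12 libraries), a checkpoint kinase gene known from the circadian clock, and acw-3 (0.98), named for an anchored cell wall protein. For mak-1 they were pex5 (0.98), the receptor for import of matrix proteins into peroxisomes, and mdk-1 (0.97), and for os-4 uvs-5 (0.91) and stk-26 (0.90). Without library I these correlations were between 0.88 and 0.99.

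Other genes of the pathways came from lists of 33 upstream and downstream genes, of which 27 were matched by symbol in the reference. In the MAK-1 list, 6 genes were matched and tested. At 5 min 2 of them were called higher than in HSAF-0 (wsc-1 and adv-1), and 2 at 30 min (rgf1 and adv-1). Between HSAF-30 and HSAF-60 the calls were 2 decreases (rgf1 and adv-1), and wsc-1 made 3 without library I. The matching shares of all tested genes were 9.72% and 19.1% for the increases and 13.8% for the decreases. The medians of the list were 0.50, 1.13 and -1.11 in these 3 comparisons, beside -0.11, -0.17 and 0.095 over all tested genes.

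The transcription factor gene adv-1, known downstream of MAK-1 and MAK-2 in hyphal fusion and development, had the largest change of this list. It was at 18.6, 18.0 and 15.2 CPM before treatment, 67.3, 103 and 60.0 after 5 min, 140, 238 and 58.4 after 30 min, and 11.8, 10.6 and 9.30 after 60 min. HSAF-5 and HSAF-30 thus lay above both HSAF-0 and HSAF-60. The log2 fold changes of adv-1 were 2.16 at 5 min, 3.09 at 30 min (3.46 without library I) and -3.79 from HSAF-30 to HSAF-60 (-4.16 without it), with adjusted p = 0.00117, 2.32e-05 and 1.38e-05 in edgeR.

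The wall stress sensor gene wsc-1 rose by 1.34 on the log2 scale at 5 min (adjusted p = 0.00926, edgeR), from 172 to 193 CPM in HSAF-0 to 413 to 518 in HSAF-5. At 30 min it was at 1.15 (adjusted p = 0.0101), which was not called, and at 1.42 without library I (adjusted p = 0.00132), which was. The gene of the scaffold protein SO, so, was called higher in HSAF-30 than in HSAF-5 (1.82, adjusted p = 0.00778, edgeR), but not without library I (1.43, adjusted p = 0.0301). The gene ham-7, whose GPI-anchored product is needed for MAK-1 activation, fell between HSAF-5 and HSAF-60 (-1.59, adjusted p = 0.00529).

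Of the 11 matched genes of the MAK-2 list, 9 were tested, and the pheromone receptor genes pre-1 and pre-2 were removed by the filter. At 30 min 1 was called higher than in HSAF-0 (gnb-1), vel was the 1 gene called lower at 60 min, and between HSAF-30 and HSAF-60 the calls were 3 decreases (gnb-1, cdc24 and vel). The shares of all tested genes called in these directions were 19.1%, 3.53% and 13.8%, and the medians of the list were 0.23, -0.88 and -1.12, beside -0.17, 0.0020 and 0.095 over all tested genes. The G protein beta subunit gene gnb-1 was at 42.4, 35.1 and 41.6 CPM in HSAF-0, 109, 109 and 48.8 in HSAF-30 and 22.2, 19.6 and 22.2 in HSAF-60. Its log2 fold change was 1.18 at 30 min (adjusted p = 0.00518, edgeR; 1.46 without library I) and -2.07 from HSAF-30 to HSAF-60 (adjusted p = 0.000119). The exchange factor gene cdc24 changed by -2.35 from HSAF-30 to HSAF-60 (adjusted p = 0.000779), at levels between 1.34 and 12.4 CPM in those groups. For vel, which encodes a p21-activated kinase, the change was -1.14 at 60 min (adjusted p = 0.00980) and -1.19 from HSAF-30 to HSAF-60 (adjusted p = 0.00417). The G protein alpha subunit gene gna-1 fell between HSAF-5 and HSAF-60 (-1.34, adjusted p = 0.00167, edgeR). The transcription factor gene pp-1, the known target of MAK-2, was taken up after its values had been seen. Its log2 fold change was -0.77 at 5 min, 0.23 at 30 min and -1.12 from HSAF-30 to HSAF-60 (adjusted p = 0.0955, 0.557 and 0.0101, edgeR), none of them called.

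All 10 genes of the OS-2 list were matched and tested. At 5 min 3 were called higher than in HSAF-0 (rrg-1, rrg-2 and ccg-1). At 30 min 4 were called higher (os-1, rrg-1, rrg-2 and ccg-1) and 2 lower (hpt-1 and gcy-3), and between HSAF-30 and HSAF-60 the calls were 2 decreases (os-1 and rrg-2) and 2 increases (hpt-1 and gcy-3). The matching shares of all tested genes, in the order given, were 9.72%, then 19.1% and 15.2%, then 13.8% and 13.4%. The medians of the list were 0.84, 0.75 and -0.75, beside -0.11, -0.17 and 0.095 over all tested genes. In this branch the sensor histidine kinase OS-1 and the phosphotransfer protein HPT-1 act above the response regulator RRG-1, which feeds into OS-4.

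The genes of the OS-2 list moved in different directions at 30 min. Of the genes below, rrg-2 is not a step of the relay described above. The phosphotransfer gene hpt-1 was at 359, 407 and 513 CPM before treatment, 344, 377 and 422 after 5 min, 93.4, 96.3 and 54.6 after 30 min and 424, 413 and 361 after 60 min. Its log2 fold change was -2.38 at 30 min (standard error 0.31, adjusted p = 1.30e-05, edgeR; -2.16 without library I) and 2.28 from HSAF-30 to HSAF-60 (adjusted p = 4.11e-05), and HSAF-30 was apart from all other groups. The response regulator gene rrg-2 had a range of 11.6 to 15.4 CPM in untreated mycelium, 26.8 to 39.2 after 5 min, 46.0 to 84.5 after 30 min and 14.8 to 18.8 after 60 min. Its log2 fold change was 1.33 at 5 min and 2.31 at 30 min (adjusted p = 0.00557 and 2.31e-05, edgeR).

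The gene gcy-3 was low at 30 min as well, at 75.6, 195 and 36.4 CPM in HSAF-30 against 438 to 721 in HSAF-0, a log2 fold change of -2.56 (adjusted p = 0.00107, edgeR; -2.18 without library I). The catalase gene cat-1 fell between HSAF-5 and HSAF-60 (-2.45, adjusted p = 0.00473). The sensor kinase gene os-1 and the response regulator gene rrg-1 were taken up after their values had been seen. For os-1 the log2 fold change was 1.70 at 30 min (adjusted p = 0.000132, edgeR), with 58.7 to 68.7 CPM in HSAF-0 and 158 to 256 in HSAF-30. For rrg-1 it was 1.79 at 5 min and 1.21 at 30 min (adjusted p = 0.000925 and 0.00670).

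**Figure D4:**
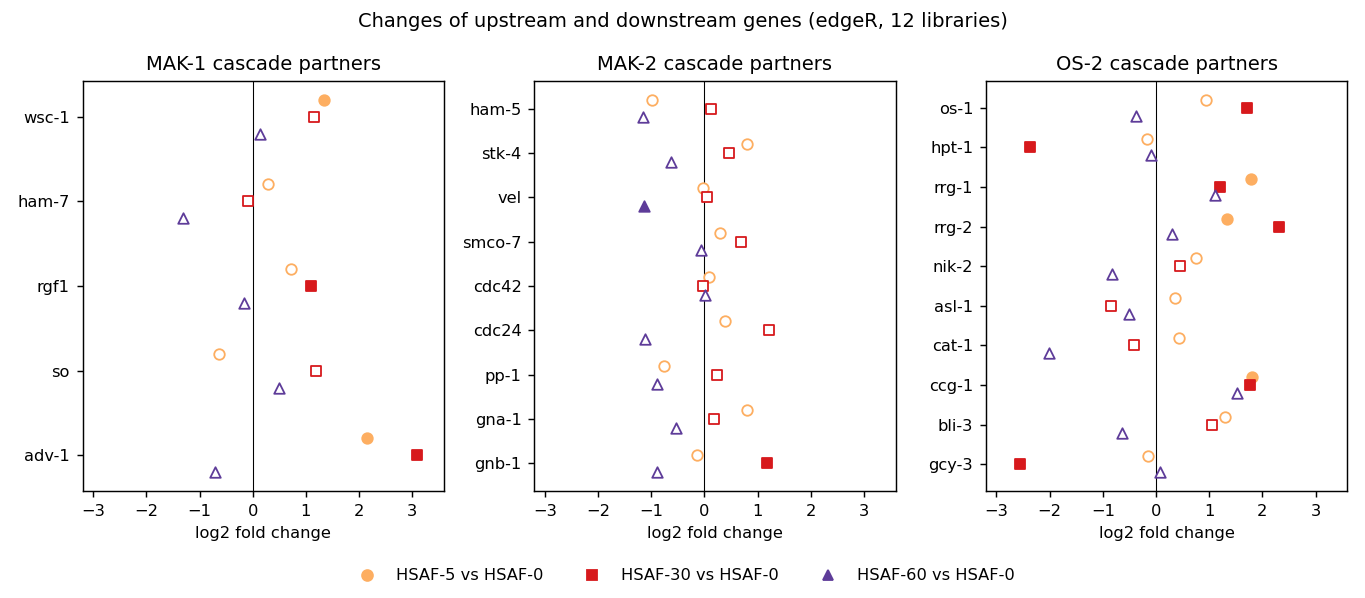
Log2 fold changes against HSAF-0 (horizontal axes) of tested genes upstream and downstream of each cascade (1 gene of the MAK-1 list is not shown), from edgeR on 12 libraries, with circles for 5 min, squares for 30 min and triangles for 60 min, filled where the gene was called. At 30 min adv-1 reaches 3.09 and hpt-1 and gcy-3 stand at -2.38 and -2.56, and at 60 min vel is the filled point.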

How the data were processed

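The authors trimmed the reads with Trimmomatic and deposited raw counts per feature and the FPKM of each of 12 libraries. Aligner, counting program and build: not given in the sources used here. Members and lists were chosen with earlier results of these data known. The counts of 9729 NCU genes went into edgeR 4.0.16 under R 4.3.3 (TMM, filterByExpr with a minimum count of 10, quasi-likelihood test, 1 term per time point, common dispersion 0.126). 95% intervals used the standard error and the test's degrees of freedom. Features named newGene were left out. DESeq2 1.42.0, limma 3.58.1 on log2(FPKM + 1), other scalings and leaving out each library served as alternatives, and a covariate for the percentage of counts on newGene_189 and newGene_190 was added after seeing the data. FPKM were rescaled over the NCU genes for levels. Log2 CPM used a prior count of 2. Full values were given to called kinase genes and the 3 MAPK genes, and to at most 4 called genes per list, by size of change. Symbols came from the NC12 table, and listed genes whose symbol differed there were left out. With 12 libraries, edgeR was tested on simulated data for 7582 genes. It called 53, 56 and 74 of 100 genes changed 4-fold and 4, 2 and 4 of 100 changed 2-fold in the 5, 30 and 60 min comparisons, and 0, 0 and 1 genes that had been left unchanged. A gene changed 2-fold lies at the fold limit itself. The simulation gave every gene the common dispersion and let libraries differ in depth alone, so it does not show the rate of wrong calls in the real libraries. Of 66 pairs of libraries, 0 held identical counts. The values of 1 gene of the MAK-1 list are not reported here.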

Additional observations from a re-analysis of the deposited data

How the results depend on the processing

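Limma on the deposited FPKM (log2(FPKM + 1), log2(FPKM + 0.1), or without a filter), whose totals include newGene_189 and newGene_190, called 0 of the 8 or 9 kinase genes tested in each comparison, with 0 to 2 at an unadjusted p under 0.05, against 1, 2, 1, 3 and 1 by edgeR at 5 min, at 30 min, from HSAF-5 to HSAF-30, from HSAF-30 to HSAF-60 and from HSAF-5 to HSAF-60. With log2(FPKM + 1) these fits called 42, 451, 75, 762 and 687 of all 6197 genes tested, so that few genes of any kind were called at 5 min. On rescaled FPKM limma called 1, 3, 1, 3 and 1, with 1063, 2806, 1387, 2304 and 1743 of all 7828 genes; from HSAF-30 to HSAF-60 it lost os-4 and gained mak-2. With the limit at an adjusted p of 0.05 and no minimum fold, 5 were called at 30 min and 2 from HSAF-5 to HSAF-60. The shares of all tested genes under this looser limit are not given here, so these counts cannot be set against them. With 1 library left out, the counts ran from 1 to 1, 2 to 4, 1 to 2, 2 to 3 and 1 to 1, and at 60 min from 0 to 0. For these fits, shares of all tested genes are given above for library I alone. The 4 calls at 30 min and the 2 from HSAF-5 to HSAF-30 came without library H, when mak-2 (-1.67) and os-5 (1.19) joined at 30 min and mak-2 (-1.29) in the latter; the cause was not tested. Upper quartile factors moved the median log2 fold change of all genes by -0.25 at 5 min and -0.30 at 30 min, and library size alone by -0.49 and -0.27. Relative to that median, mek-1 at 5 min lay between 3.46 and 3.47 and mak-1 at 30 min between 2.91 and 2.91 over 5 scalings. No paired analysis was possible because libraries carry letters and no replicate number shared between groups. Counts of 11 to 54 in library I for 7 of the 9 genes limit what HSAF-30 can show for them.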

Other observations

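The level of mik-1 went with the share of newGene_189 and newGene_190 in HSAF-0, at 19.6, 11.3 and 6.29 CPM in libraries with a share of 80.4%, 43.5% and 34.9%. In HSAF-30 the library with the highest share, I at 93.7%, had the highest mik-1 level, 30.6 CPM. In HSAF-5 the order differed, with 7.20, 8.77 and 2.89 CPM at 77.8%, 65.3% and 39.8%. With this share as a covariate, an alternative chosen after seeing the data, the log2 fold change of mik-1 at 5 min was -1.19 (adjusted p = 0.0345, edgeR), in place of -0.97 (adjusted p = 0.255), and was not called in either fit. The part of the share in these levels was not tested further.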
